A study of Mus musculus with 24 samples.

Results

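RNA sequencing of whole Achilles tendon from 3-month-old mice compared 7 AMPKcKO libraries (cKO; 3 female, 4 male) with 5 wildtype libraries (2 female, 3 male), 12 of the 24 libraries of the series. They were chosen by title, as the AMPKcKO and Wildtype libraries not marked as 1 month old. Their age is taken as 3 months, the other age that the study names. All animals had cage activity, and the other 12 libraries (6 of each genotype) came from 1-month-old animals. The study's title concerns loss of AMPKα1, encoded by Prkaa1. The labels name no Cre driver, floxed allele, deleted exon, targeted cell or strain, and do not say whether each library came from a separate animal, so p-values measure the spread between these libraries, which may be partly technical.

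AMP-activated protein kinase (AMPK) is a trimer of a catalytic α, a scaffolding β and a nucleotide-sensing γ subunit. It is switched on when cellular energy falls, after phosphorylation of the α subunit by upstream kinases, and its substrates restrain lipid and protein synthesis and favour fatty acid oxidation, glucose use and autophagy. The Achilles tendon is a collagen-rich tissue whose fibroblasts are marked by the transcription factor scleraxis (Scx), and a dissected tendon also carries vessels, nerve, immune cells, fat and some of the attached muscle.

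Total counts were 9.45 to 15.9 M per wildtype library (median 12.3) and 7.32 to 16.6 M per cKO library (median 14.5). Muscle RNA was present throughout: the titin gene alone took 4.63 to 11.9% of counts in wildtype and 3.18 to 12.2% in cKO libraries, while the tendon collagen gene Col1a1 took 0.343 to 1.79% and 0.466 to 2.38%. All 21 tendon fibroblast markers and all 22 muscle markers were detected. Principal component 1 (30.1% of the variance of log2 CPM, the counts scaled to library depth) ran from wildtype female 4, cKO male 3 and cKO female 6 at one end to cKO male 5 at the other, and cKO male 5 also had the lowest muscle level (mean log2 CPM 8.69). Component 2 (13.4%) set wildtype male 6 apart. A cre transcript was at 0 FPKM (fragments scaled to transcript length and library depth) in all 5 wildtype libraries and at 0.51 to 3.5 FPKM in all 7 cKO libraries. An eGFP transcript, in contrast, was at 1.4 to 5.8 FPKM in cKO female 4 and male 3 and 5 while the remaining 4 cKO libraries had 287 to 558 FPKM. The results that moved most without these 3 libraries are also given without them, a choice made after the data were seen.

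Prkaa1 (GRCm38 chr15:5143861-5181899, plus strand) averaged 23.7 ± 6.33 CPM (SD, n = 5) in wildtype and 17.3 ± 2.58 CPM (n = 7) in cKO tendon. Wildtype females had 13.5 and 27.4 CPM and wildtype males 28.2, 27.95 and 21.5 CPM, while the cKO libraries ran from 13.6 to 20.6 CPM with a median of 17.3. The groups overlapped through a single library, wildtype female 4, which lay below every cKO library. The difference did not pass an exact permutation test within sex (two-sided p = 0.0886, 350 arrangements, smallest possible p 0.00286). The fitted log2 fold change was -0.43 ± 0.17 (SE; 95% interval -0.79 to -0.07). Without wildtype female 4 it was -0.63, and without wildtype female 5 it was -0.12. Leaving out wildtype female 4 removes the only overlap between the groups, so the larger value is no independent support. The counts are per gene and do not show which exons were read, so a deleted exon could not be examined, and in whole tissue fewer cells of a type and less RNA per cell cannot be told apart.

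None of the 7 subunit genes passed the adjusted edgeR test. Prkaa2, the α2 catalytic subunit that is abundant in muscle, had 104 ± 50.7 CPM in wildtype and 96.6 ± 41.5 CPM in cKO (log2 fold change -0.05 ± 0.43), and its sign changed with several settings. The scaffolds Prkab1 and Prkab2 had 0.09 ± 0.15 and 0.56 ± 0.51, the latter turning to -0.11 without cKO female 6, and the nucleotide-binding subunits Prkag1, Prkag2 and Prkag3 had 0.07 ± 0.13, -0.06 ± 0.12 and 1.07 ± 0.93, the last turning to -0.30 without cKO female 6. Prkag3 had the widest error: it ran from 1.74 to 43.0 CPM in wildtype and from 2.11 to 69.9 CPM in cKO, and in each genotype the library with the highest Prkag3 also had the highest muscle level. Of 14 genes acting upstream of AMPK, 6 had positive and 8 negative fold changes (median -0.03). The genes of the calcium-dependent kinases that phosphorylate AMPK, Camkk2 (-0.34 ± 0.17) and Camkk1 (-0.36 ± 0.23), had the lowest values of this list, with 5 and 6 of the 7 cKO libraries below every wildtype library. Of 29 substrate genes, 14 were positive and 15 negative (median -0.003). Pfkfb3, which makes the activator of glycolytic phosphofructokinase, had the smallest p among them: 86.2 to 166 CPM in wildtype and 92.7, 123 and 371 CPM (lowest, median, highest) in cKO, a log2 fold change of 0.80 ± 0.31 that was 0.36 without cKO female 6.

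**Figure D1:**
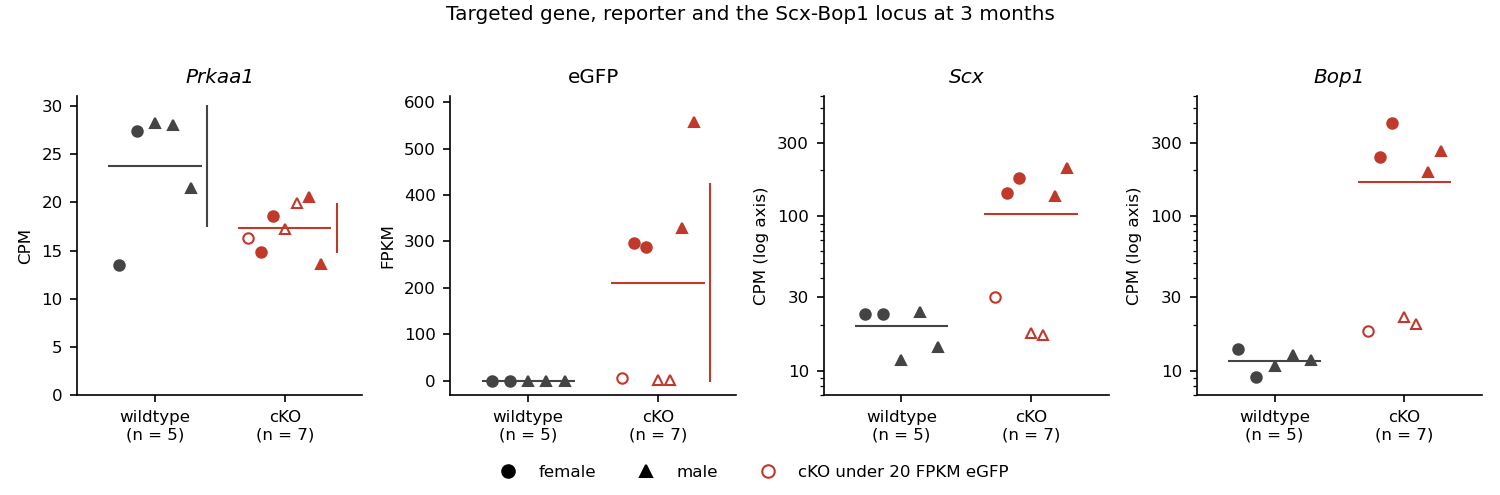
Levels of Prkaa1 (CPM), eGFP (FPKM), Scx and Bop1 (CPM, log axes) in each 3-month library; horizontal lines are group means, vertical lines on the linear axes the SD, circles females, triangles males, and open symbols the 3 cKO libraries under 20 FPKM of eGFP. The 4 filled cKO symbols of Scx (135 CPM or more) and Bop1 (194 CPM or more) stand above all wildtype libraries, while the open ones lie near them.

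The gene of smallest p and a gene within it lie at one locus on chromosome 15. Scx (chr15:76457452-76459458, plus strand), the scleraxis gene, lies inside intron 3 (chr15:76456027-76466771) of the 16-exon transcript of Bop1 (chr15:76452989-76477277, minus strand), a gene for ribosome assembly. Bop1 measured 13.9 and 9.26 CPM in wildtype females and 10.8, 12.8 and 11.8 CPM in wildtype males. In cKO females it measured 18.2, 242 and 403 CPM and in cKO males 22.4, 20.2, 194 and 266 CPM, so every cKO library lay above every wildtype library. Scx measured 11.8 to 24.2 CPM in wildtype, and 30.1, 142, 178, 17.6, 17.1, 135 and 207 CPM in cKO female 4, 5 and 6 and male 3, 5, 6 and 7. Scx was chosen for its small p in an earlier look at these data, and Bop1 as the gene whose intron holds it. Within sex, both passed an exact permutation test (two-sided p = 0.0171 for Bop1 and 0.0257 for Scx, n = 5 and 7). These p-values were not adjusted for that choice and are no independent support. The log2 fold changes were 3.84 ± 0.82 (95% interval 2.12 to 5.55) for Bop1 and 2.40 ± 0.69 (0.95 to 3.84) for Scx. Bop1 had the smallest p of all genes. It did not pass in edgeR's quasi-likelihood test after Benjamini-Hochberg adjustment (adjusted p = 0.9999) but did in DESeq2 (adjusted p = 0.000516).

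The 7 cKO libraries fell in separate ranges at this locus, which matched their level of an eGFP transcript. eGFP measured 0 FPKM throughout wildtype, but 296, 287, 329 and 558 FPKM in cKO female 5 and 6 and male 6 and 7, and only 5.8, 1.4 and 1.57 FPKM in cKO female 4 and male 3 and 5. In the latter 3, Scx lay within the wildtype range in both males and above it in the female (30.1 CPM), while Bop1 lay at 18.2 to 22.4 CPM, still above the wildtype maximum of 13.9 CPM. Without these 3 libraries, which held the lowest Bop1 and Scx values in cKO, the log2 fold change was 4.56 ± 0.54 for Bop1 and 3.07 ± 0.54 for Scx. In that fit Bop1 alone passed (edgeR adjusted p = 0.00437). The fit was chosen after the data were seen and drops the lowest values, so this p is no independent support. Scx and Bop1 overlap on opposite strands, and no source used here gives the strand setting of the counting, so their reads may be partly mixed. Cre did not follow eGFP: the highest cre value, 3.5 FPKM, was in cKO female 4. The part of the transgenes in these counts was not tested.

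Across the transcriptome, no gene was called (adjusted p under 0.05) among the 19137 tested with edgeR (0%), whose lowest adjusted p was 0.9999. At an unadjusted p under 0.05 there were 424 genes (2.22%, against a nominal 5%), of which 176 were higher in cKO (0.92% of genes tested) and 248 lower (1.3%). DESeq2 called 1 gene, Bop1, and had 495 genes at an unadjusted p under 0.05. Limma-voom called 0 with 556 such genes, and limma on log2 FPKM called 0 with 309 or 295 by pseudocount. Fold changes were balanced, with 9535 positive and 9602 negative (49.8% positive, median log2 -0.00083) after TMM scaling, which centres them. Limma on log2 FPKM, which had no such scaling, gave 59.9% or 59.6% positive by pseudocount. Their precision limited what could be seen: the median standard error was 0.259, and the 95% interval lay within a 2-fold change either way for 13001 genes (67.9%) and within 1.5-fold for 7665 (40.1%). Without the 3 cKO libraries low in eGFP, a fit chosen after the data were seen, 1150 of 18824 genes (6.11%) had an unadjusted p under 0.05. In it 1 gene, Bop1, was called. Leaving out single libraries, this number ran from 319 (without cKO female 6) to 870 (without wildtype female 4), and was 687 without cKO male 5 and 652 without cKO female 4, with no gene called by edgeR in any of these fits. Of the 97 genes named here, 39 shrank by over 1.5 times or changed sign without wildtype female 5, 1 of only 2 wildtype females, against 2 to 9 without any other 3-month library. Without wildtype female 4, 16 grew by over 1.5 times.

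**Figure D2:**
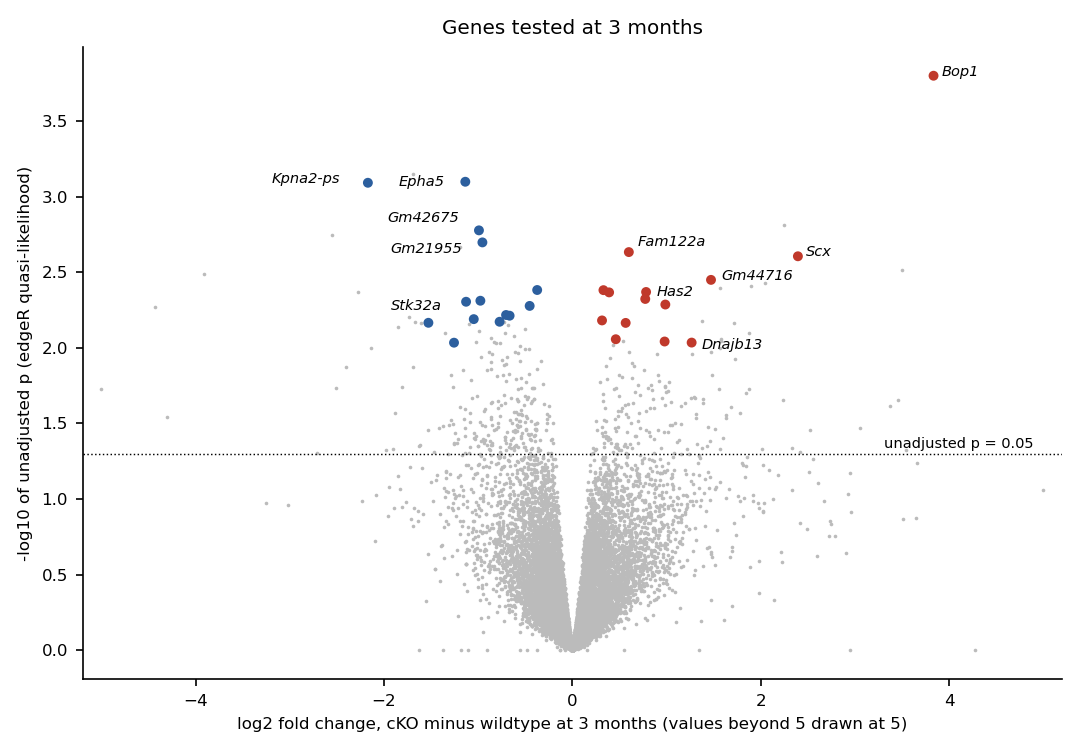
Log2 fold change (cKO minus wildtype) against -log10 of the unadjusted edgeR p for the 19137 genes tested. Coloured points are the genes of smallest p or largest change among those with a symbol and at least 1 CPM (red higher, blue lower in cKO), and Bop1 and Scx lie farthest to the right among them at 3.84 and 2.40.

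The genes described next have the smallest p-values in each direction, and none passed the adjusted test. Among those higher in cKO were signalling and matrix genes. Has2, the main hyaluronan synthase of fibroblasts (chr15:56665627-56694539), measured 4.26 and 2.55 CPM in wildtype females and 4.16, 9.28 and 4.22 CPM in wildtype males, against 4.69, 9.07 and 16.4 CPM (lowest, median, highest) in cKO. Only 2 of 7 cKO libraries exceeded wildtype male 5, the highest wildtype library, and the log2 fold change was 0.78 ± 0.24. Smad1, a transcription factor of bone morphogenetic protein (BMP) signalling, measured 21.3, 17.65, 22.65, 25.9 and 25.8 CPM in wildtype and 24.99, 26.3 and 30.7 CPM in cKO (0.33 ± 0.10). Its difference lay in females (0.56) rather than males (0.10), although this sex difference did not pass the adjusted test. Adamts12, a secreted metalloprotease that cuts cartilage oligomeric matrix protein, measured 22.0 to 41.8 CPM in wildtype and 31.6, 45.7 and 62.7 CPM in cKO, with 6 of 7 cKO libraries above every wildtype library (0.57 ± 0.19).

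Others in this group were receptors, adaptors and regulators. Il1rl2, the interleukin-36 receptor, measured 3.67 to 9.28 CPM in wildtype and 5.62, 12.1 and 14.7 CPM in cKO (0.77 ± 0.24), with 5 of 7 cKO libraries above every wildtype library. Traf2, an adaptor of tumour necrosis factor receptors, had 8.91 ± 1.05 and 10.9 ± 1.02 CPM (0.32 ± 0.10), and Pvr, the poliovirus receptor and an adhesion protein, had 9.20 ± 0.952 and 12.9 ± 2.22 CPM (0.46 ± 0.16). The transcription regulator Zfp608 had 14.55 to 20.1 CPM in wildtype and 20.2 to 29.4 CPM in cKO, so that the groups did not overlap (0.39 ± 0.12). Fam122a, an inhibitor of protein phosphatase 2A, likewise had 3.05 to 4.70 CPM against 5.1 to 7.81 CPM (0.60 ± 0.17). The low-count genes Pcdhb15 (a protocadherin, 0.99 ± 0.32), Hoxa3 (a homeobox factor, 0.98 ± 0.34) and Dnajb13 (a heat shock protein 40 family member of cilia and flagella, 1.27 ± 0.44) averaged under 2 CPM in either genotype.

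Among the genes lower in cKO that averaged at least 1 CPM, Epha5, a receptor of the ephrin family of guidance signals, had the smallest p. It measured 5.02 and 9.76 CPM in wildtype females and 4.43, 5.84 and 6.94 CPM in wildtype males, against 3.68, 3.16 and 2.20 CPM in cKO females and 1.22, 5.80, 1.84 and 3.09 CPM in cKO males. Of the 7 cKO libraries, 6 lay below every wildtype library and cKO male 5 within their range (-1.14 ± 0.29, 95% interval -1.74 to -0.53). A relative, Epha7, had 4.34 ± 1.53 and 2.94 ± 0.892 CPM (-0.58 ± 0.25, and -0.14 without wildtype female 5), whereas Ephb1 had 1.14 ± 0.477 and 1.71 ± 0.682 CPM (0.67 ± 0.41). Over the 17 Eph and ephrin genes tested, 8 were positive and 9 negative (median -0.02), with none higher and 2 lower at an unadjusted p under 0.05.

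Vegfc, the growth factor of lymphatic vessels, measured 3.17 to 4.96 CPM in wildtype and 1.95, 2.13 and 3.87 CPM in cKO, with 5 of 7 cKO libraries below every wildtype library (-0.70 ± 0.23). Stk32a, a serine/threonine kinase, measured 6.22 and 18.0 CPM in wildtype females and 22.6, 31.1 and 27.2 CPM in wildtype males, against 1.44, 10.2 and 17.9 CPM in cKO. Its log2 fold change of -1.13 ± 0.36 was -0.64 without wildtype female 5. Lamc3, a laminin chain of basement membranes, measured 2.73 to 14.2 CPM in wildtype and 1.17, 3.32 and 7.49 CPM in cKO (-1.05 ± 0.35), and -0.65 without wildtype female 5. Mfhas1, a leucine-rich repeat protein with a role in Toll-like receptor signalling, did not overlap, with 14.96 to 18.7 CPM in wildtype and 10.75 to 14.2 CPM in cKO (-0.37 ± 0.12). Rbis, a ribosome biogenesis factor, had 20.4 ± 4.02 and 15.1 ± 3.25 CPM (-0.45 ± 0.15). Of low-count genes, the retinoic acid hydroxylase Cyp26a1 (2.69 ± 1.58 and 1.16 ± 0.732 CPM, -1.26 ± 0.44) and the paraoxonase Pon1 (2.29 ± 1.31 and 1.08 ± 0.876 CPM, -1.53 ± 0.51) were also lower in mean. The processed pseudogene Kpna2-ps, a copy of a nuclear import gene, was at 0 CPM in cKO female 5 and 6 and at 0.764 to 2.58 CPM in wildtype (-2.17 ± 0.55, and -4.26 without the 3 cKO libraries low in eGFP), and its counts are uncertain because reads can be shared with its parent gene.

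Without the 3 cKO libraries low in eGFP these genes kept their signs and also missed the adjusted edgeR test. The log2 fold change of Epha5 was then -1.33 ± 0.27 (adjusted p = 0.293), that of Stk32a -1.54 ± 0.37 (adjusted p = 0.427), that of Adamts12 0.75 ± 0.20 (adjusted p = 0.547) and that of Smad1 0.40 ± 0.12 (adjusted p = 0.616). Pfkfb3 had 1.15 ± 0.31 and Prkaa1 -0.44 ± 0.21 in this fit.

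**Figure D3:**
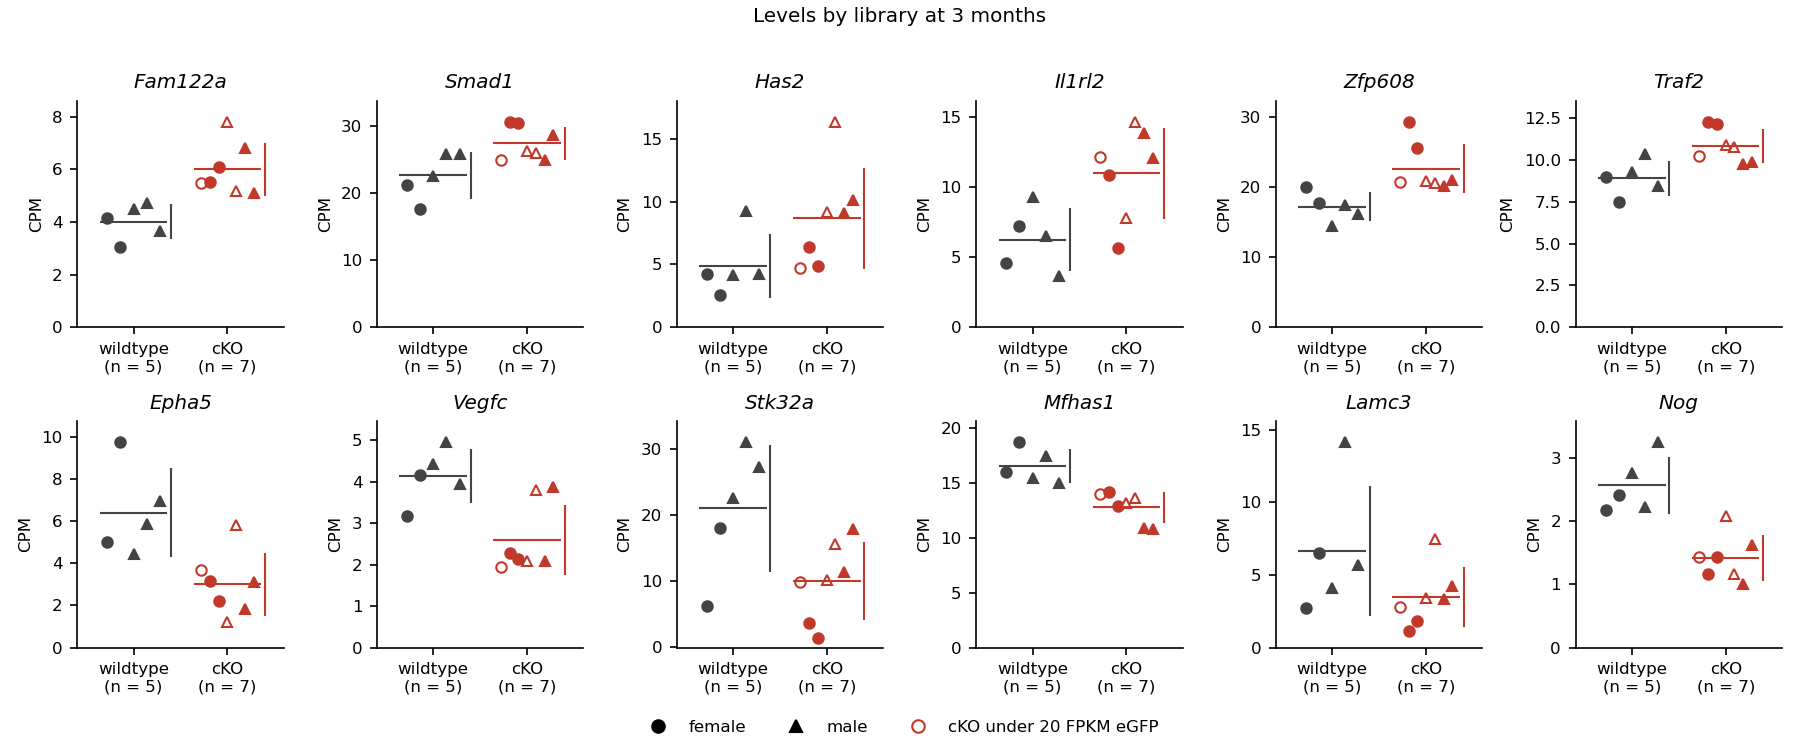
CPM of 12 genes in each 3-month library (symbols and lines as for the plot of Prkaa1, eGFP, Scx and Bop1). In the top row (Fam122a to Traf2) the cKO mean lies above the wildtype mean and in the bottom row (Epha5 to Nog) below it, and the groups share no values for Fam122a, Zfp608, Mfhas1 and Nog.

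Several of the smallest p-values belonged to short provisional models, of a class that the annotation holds for experimental follow-up, lying inside protein-coding genes on the same strand. Gm44716 (0.536 ± 0.204 and 1.59 ± 1.01 CPM, log2 fold change 1.47 ± 0.45) lies in Col4a1, a basement membrane collagen gene whose own value was 0.51 ± 0.29. Gm42675 (-0.99 ± 0.27) lies in Sema3a, a secreted guidance cue with a value of -0.59 ± 0.25, and Gm47665 (-0.98 ± 0.31) in Elmo1, an engulfment adaptor with -0.41 ± 0.21. Gm44758 (-0.67 ± 0.22) lies in Rgma and Gm38197 (-0.77 ± 0.26) in Mecom, which had -0.11 ± 0.12 and -0.14 ± 0.14. In each of these 5 pairs model and host had the same sign and the model the larger value, and since reads of the host's transcripts can be assigned to such a model, the values of these models are uncertain. Gm21955 (48.1 ± 15.6 and 25.6 ± 8.31 CPM, -0.95 ± 0.27) overlaps no other annotated gene.

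The CPM ranges of the genotypes did not overlap for 8 genes higher in cKO (0.0418% of genes tested) and 18 lower (0.0941%), and 19 of these 26 had a symbol and at least 1 CPM. How many genes chance alone would separate was not computed, so the lack of overlap does not by itself set these genes apart. The following were chosen after their values were seen. Pla2r1, the M-type phospholipase A2 receptor, had 8.96 to 10.9 CPM in wildtype and 11.6 to 12.8 CPM in cKO (0.30 ± 0.11), with an SD in cKO of only 0.478 CPM. Relb, a subunit of the alternative NF-κB pathway, had 7.21 to 8.85 and 8.89 to 12.1 CPM (0.36 ± 0.15). Among those lower, Rad1, part of the DNA damage checkpoint clamp, had 2.73 to 3.67 and 1.37 to 2.53 CPM (-0.60 ± 0.21). Nfib, an abundant transcription factor of fibroblasts, had 334 to 367 CPM in wildtype and 279 to 332.5 CPM in cKO (-0.19 ± 0.11), although limma on log2 FPKM gave it the opposite sign.

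Gene lists were described by counts and medians, beside the values over all genes (49.8% positive, median near 0). BMP and transforming growth factor β signalling genes leaned lower, with 27 of 33 negative and 6 positive (median -0.17, range -1.19 to 0.46). Only Smad1 (higher) and Nog (lower) had an unadjusted p under 0.05. Nog, the secreted BMP antagonist noggin, measured 2.18 and 2.42 CPM in wildtype females and 2.77, 2.22 and 3.26 CPM in wildtype males, against 1.01, 1.44 and 2.08 CPM in cKO, so the groups did not overlap (-0.83 ± 0.29). The ligand gene Bmp2 had 26.6 ± 11.7 and 18.4 ± 6.21 CPM (-0.49 ± 0.25, and -0.02 without wildtype female 5), with overlapping ranges. The list's median rested on the wildtype females: it was -0.23 without wildtype female 4 and -0.02 without wildtype female 5.

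Of 17 collagen genes, 11 were positive and 6 negative (median 0.12). Col5a3, a chain of type V collagen, measured 64.6 to 145 CPM in wildtype and 116, 166 and 180.5 CPM in cKO, with 5 of 7 cKO libraries above every wildtype library (0.57 ± 0.24). The basement membrane chains Col4a1 (347 ± 100.1 and 511 ± 158 CPM, 0.51 ± 0.29) and Col4a2 (226 ± 48.9 and 310 ± 99.7 CPM, 0.43 ± 0.27) also had 5 of 7 cKO libraries above every wildtype library. Without cKO male 7 the median of the collagens was 0.03 and without wildtype male 5 it was 0.28. Collagen-processing genes leaned the other way, with 18 of 24 negative (median -0.06), among them P4ha1, a prolyl hydroxylase subunit (101 ± 29.5 and 71.7 ± 16.2 CPM, -0.50 ± 0.24), and Loxl3, a lysyl oxidase (-0.39 ± 0.21, and -0.02 without wildtype female 5). The median of that list turned to 0.04 without wildtype male 5.

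Of 26 proteoglycan and elastic fibre genes, 18 were negative (median -0.19). Fbln1, an elastic fibre and basement membrane protein, had 161 ± 78.2 and 90.4 ± 47.9 CPM (-0.85 ± 0.39), Comp, a collagen fibril organiser, 861 ± 314.5 and 592 ± 329 CPM (-0.56 ± 0.34), and Kera, the corneal and tendon proteoglycan keratocan, 29.0 ± 15.9 and 19.9 ± 8.06 CPM (-0.56 ± 0.36). Without wildtype female 5 the values of Fbln1 and Comp were -0.19 and -0.02. This median changed sign without wildtype female 5 (0.08) and was -0.43 without wildtype female 4. Matrix proteases and their inhibitors were split, with 10 of 18 positive (median 0.06, and -0.08 without wildtype male 6). Timp3, an inhibitor of metalloproteases bound to the matrix, measured 529 to 1550 CPM in wildtype and 324, 517 and 864 CPM in cKO (-0.77 ± 0.33; -0.28 without wildtype female 5), while the aggrecanase Adamts4, which it inhibits, averaged 0.655 ± 0.530 and 2.01 ± 0.982 CPM (1.596 ± 0.724) and the membrane-bound collagenase Mmp14 24.2 ± 8.47 and 36.2 ± 8.62 CPM (0.55 ± 0.31). Of 15 hyaluronan genes, 4 were positive, Has2 among them, and 11 negative (median -0.17, and -0.006 without wildtype male 5), including the degrading enzyme Hyal1 (-0.52 ± 0.25) and Cemip2, a surface protein tied to hyaluronan turnover (-0.30 ± 0.12).

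Tendon fibroblast markers had 7 positive and 14 negative values (median -0.13). Beside Scx, the tendon transcription factor Mkx had 41.3 ± 13.4 and 29.5 ± 11.1 CPM (-0.49 ± 0.26) and Fibin, a secreted protein, 118 ± 57.5 and 79.7 ± 43.9 CPM (-0.58 ± 0.31), each with 4 of 7 cKO libraries below every wildtype library. Without wildtype female 5 these values were -0.19 and -0.11. The markers' mean log2 CPM was 6.75 ± 0.46 in wildtype and 6.71 ± 0.39 in cKO, and the median fold change was 0.02 without wildtype female 5 and -0.33 without wildtype female 4.

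All 31 nuclear genes of oxidative phosphorylation had negative fold changes (median -0.19, range -0.44 to -0.07), as did all 13 mitochondrially encoded ones (median -0.29). None had an unadjusted p under 0.05. Cox6c, a cytochrome oxidase subunit, had 517 ± 192 and 385 ± 97.8 CPM (-0.44 ± 0.29), and mt-Nd3, a complex I subunit, 213 ± 95.1 and 153 ± 32.3 CPM (-0.43 ± 0.28). The groups overlapped, with a mean log2 CPM of the nuclear genes of 5.97 to 7.27 in wildtype and 6.41 to 7.42 in cKO. The mitochondrial difference lay in males (median -0.56) more than in females (-0.02), a contrast that was not tested for the list. Members of this list share their libraries, and the nuclear median was -0.09 without wildtype male 4 and -0.36 without cKO male 3, while the mitochondrial one was -0.10 without wildtype male 6 and -0.48 without cKO male 3. With the muscle level as a covariate all 31 and all 13 were again negative (medians -0.15 and -0.21), as they were without the 3 cKO libraries low in eGFP (-0.31 and -0.44). Without wildtype female 4, however, 7 of 31 and 1 of 13 were positive. The muscle level itself was 9.29 to 11.7 in wildtype and 8.69 to 11.99 in cKO.

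Of 20 fatty acid oxidation genes, 17 were negative (median -0.10). The exception with the smallest p was Cpt1a, which admits long-chain fatty acids to mitochondria, at 13.7 to 27.3 CPM in wildtype and 23.1, 31.1 and 38.9 CPM in cKO (0.46 ± 0.21). This list's median turned to 0.04 without wildtype male 4. Of 20 lipid and sterol synthesis genes, 16 were negative (median -0.10), with Insig1, a brake on sterol synthesis, at 18.8 ± 4.61 and 14.9 ± 1.54 CPM (-0.36 ± 0.21). Glycolysis genes had 14 of 20 positive values (median 0.12), a sign that turned without cKO female 6 (-0.17).

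Immediate early genes, transcribed within minutes of a stimulus or of tissue handling, had 18 positive and 4 negative values (median 0.34, range -0.15 to 0.72). Their mean log2 CPM was 3.55 to 4.14 in wildtype and 3.82 to 4.60 in cKO libraries. The 2 highest values of the list belonged to Nr4a3 and Nr4a1, genes of the NR4A family of orphan nuclear receptors. Nr4a1 measured 41.6 and 11.25 CPM in wildtype females and 18.5, 10.7 and 24.1 CPM in wildtype males, against 11.6, 30.3 and 68.5 CPM in cKO (0.69 ± 0.36). Nr4a2 measured 9.39, 4.23, 4.16, 5.91 and 3.67 CPM in wildtype and 2.94, 8.07 and 10.6 CPM in cKO (0.56 ± 0.26). Nr4a3, named to complete the family after its values were seen, measured 26.4, 2.36, 4.64, 4.70 and 3.40 CPM and 4.01, 13.6 and 20.8 CPM (0.72 ± 0.46). For all 3 genes wildtype female 4 was the highest wildtype library, and without it the log2 fold changes of Nr4a1, Nr4a2 and Nr4a3 were 1.299, 0.90 and 2.01, while without wildtype female 5 they were 0.36, 0.32 and 0.27. Fosl2, a subunit of the AP-1 factor, had 37.4 ± 10.3 and 49.1 ± 11.4 CPM (0.38 ± 0.19). The list's median ran from 0.17 without cKO female 5 to 0.46 without wildtype female 4.

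Because the NR4A genes form a family and are textbook targets of cyclic AMP signalling, the 250 bases upstream of their starts are shown (RefSeq, GRCm38.p6), in capitals the 5-base core of the cyclic AMP response element (TGACG, or CGTCA on the other strand). The stretches are chr15:101266596-101266845 (plus strand) for Nr4a1, chr2:57124004-57124253 (minus strand) for Nr4a2 and chr4:48045055-48045304 (plus strand) for Nr4a3.
Nr4a1: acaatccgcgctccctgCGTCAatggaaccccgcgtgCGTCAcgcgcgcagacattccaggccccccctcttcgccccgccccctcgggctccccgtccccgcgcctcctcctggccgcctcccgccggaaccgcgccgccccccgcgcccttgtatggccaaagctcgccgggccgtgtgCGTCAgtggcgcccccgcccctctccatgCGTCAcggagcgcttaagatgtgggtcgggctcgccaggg
Nr4a2: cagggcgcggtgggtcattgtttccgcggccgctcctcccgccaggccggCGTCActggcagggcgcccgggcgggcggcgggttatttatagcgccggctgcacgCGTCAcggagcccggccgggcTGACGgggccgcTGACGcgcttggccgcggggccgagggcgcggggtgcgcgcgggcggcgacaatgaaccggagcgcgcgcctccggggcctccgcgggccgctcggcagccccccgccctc
Nr4a3: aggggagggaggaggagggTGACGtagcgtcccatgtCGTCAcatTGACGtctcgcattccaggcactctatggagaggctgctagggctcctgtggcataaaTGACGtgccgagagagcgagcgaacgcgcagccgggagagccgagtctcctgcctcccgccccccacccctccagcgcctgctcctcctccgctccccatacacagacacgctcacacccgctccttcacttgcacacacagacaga
Each stretch held 4 cores and no full element (TGACGTCA). Over all 32851 promoters of the table, taken from 250 bases before to 50 after the start, 6837 (20.8%) held at least 1 core, 76 (0.231%) at least 4, and 588 (1.79%) the full element, which itself contains cores. Promoters of tested genes held a core more often, at 4359 of 15200 (28.7%), and their share with at least 4 was not counted. Of the 22 immediate early genes tested, 18 had an entry and 11 of these (61.1%) held a core, against 3953 of the 11914 tested genes with an entry (33.2%). The full element was held by 1 of the 18 (5.56%) and by 386 of the 11914 (3.24%). A match is only a run of letters and says nothing of binding in these libraries.

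Of 20 circadian clock genes, 14 were negative and 6 positive (median -0.24, range -0.66 to 1.37). The activators Npas2 (1.71 ± 1.24 and 4.56 ± 2.81 CPM, 1.37 ± 0.80) and Arntl (6.62 ± 3.16 and 12.2 ± 5.61 CPM, 0.88 ± 0.48) were higher in mean, and the output factor Hlf lower (24.1 ± 7.33 and 14.9 ± 5.21 CPM, -0.66 ± 0.35, and -0.29 without wildtype female 5). Time of collection is not in the labels. Among mechanically responsive genes, 11 of 20 were positive, with Amotl2, a target of the YAP and TAZ coactivators, at 79.8 ± 13.0 and 117 ± 29.6 CPM (0.53 ± 0.20) and Wwtr1, the gene of TAZ, at 71.8 to 86.4 and 86.2 to 97.99 CPM (0.23 ± 0.12). Fgf2, a growth factor of fibroblasts and vessels, measured 39.3 to 62.2 CPM in wildtype and 26.2, 40.4 and 44.1 CPM in cKO (-0.42 ± 0.17; -0.23 without wildtype female 5). Inflammation genes were split 9 to 10 (median -0.01; -0.11 without cKO male 5 and 0.24 without wildtype female 5), with the alarmin Il33 at 9.91 ± 6.56 and 5.86 ± 3.09 CPM (-0.81 ± 0.40), a sign that turned without wildtype female 5. In the unfolded protein response list 17 of 22 were negative (median -0.08), including the stress factor Ddit3 (16.6 ± 4.15 and 12.5 ± 1.52 CPM, -0.35 ± 0.16). Oxidative stress genes were split 9 to 11, with the haem-degrading enzyme Hmox1 at 0.45 ± 0.21 and the extracellular dismutase Sod3 at -0.46 ± 0.27 (-0.08 without wildtype female 5).

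**Figure D4:**
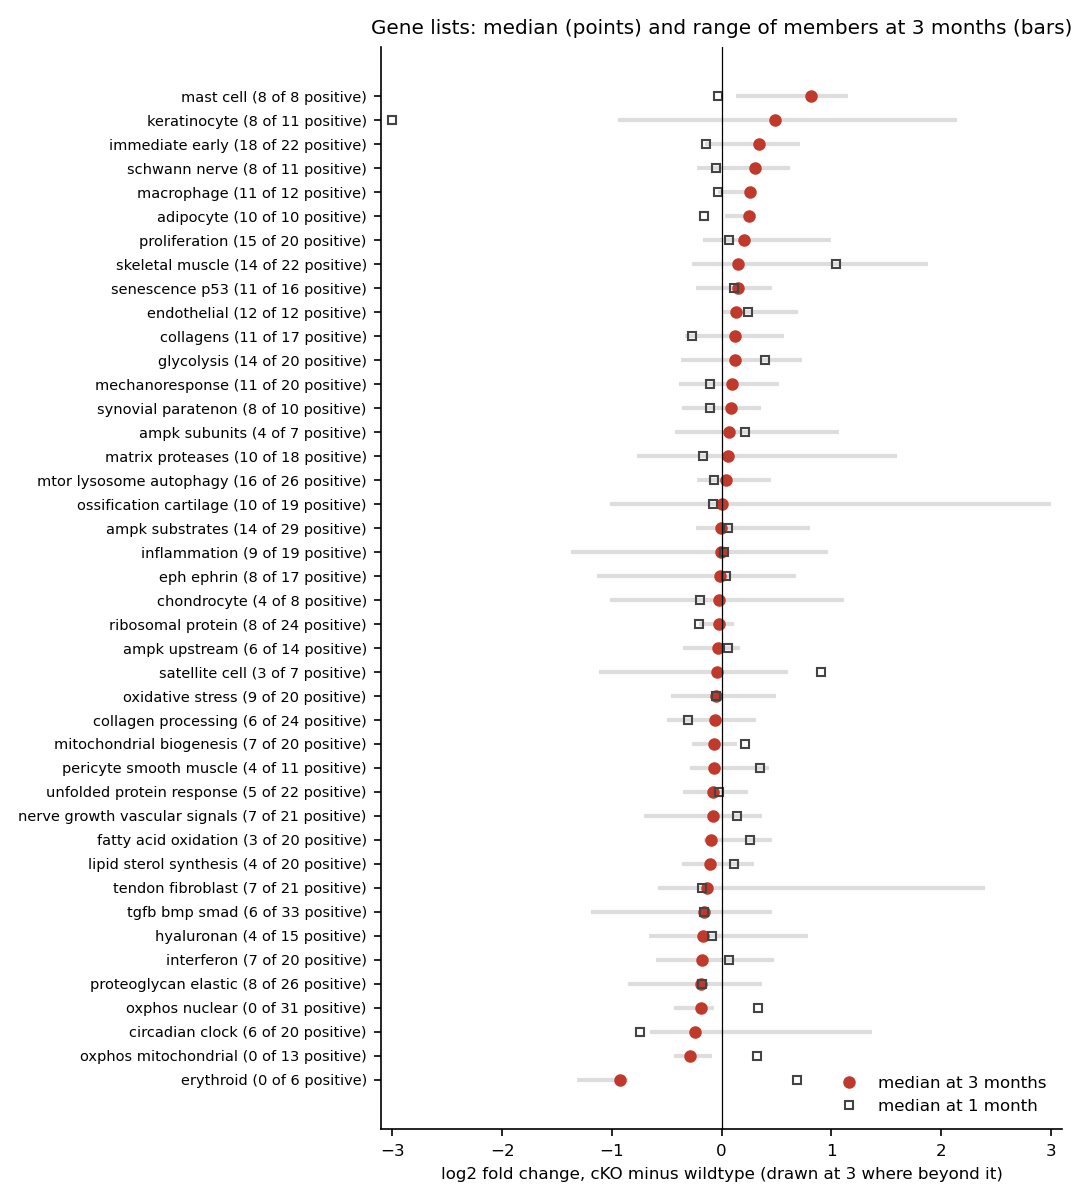
Median log2 fold change (cKO minus wildtype) of each gene list with 5 or more tested genes at 3 months (filled) and at 1 month (open), with the range of members at 3 months as a bar and the number of positive members beside the name. Both oxidative phosphorylation lists lie below 0 at 3 months and above 0 at 1 month, and the immediate early list has a median of 0.34 at 3 months.

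Markers of other cell types moved with single libraries. Mast cell markers had 8 of 8 tested members positive (median 0.81), with Hdc, the histamine-making enzyme, at 0.82 to 1.53 CPM in wildtype and 1.29, 2.17 and 3.78 CPM in cKO (0.99 ± 0.39). Their summed level was 7.75 to 35.3 CPM in wildtype and 12.8 to 87.1 CPM in cKO, the median was 0.12 without cKO male 5, and none of the 9 markers was at 0 throughout. Red blood cell markers had 6 of 6 negative values (median -0.93), with summed levels of 19.4 to 354 and 19.2 to 275 CPM. Alas2, the haem-synthesis enzyme of red cells, had 6.14 ± 5.87 and 2.63 ± 1.07 CPM (-0.94 ± 0.43), and the globin gene Hba-a2 65.1 ± 51.5 and 25.4 ± 38.4 CPM (-1.32 ± 0.63). That median was -0.15 without wildtype female 5 and -1.84 without cKO male 5. All 12 endothelial markers were positive (median 0.13, summed 507 to 673 and 423 to 802 CPM), but 6 of 12 (median -0.01) in a fit with the replicate number as a block. That fit rests on the libraries whose number occurs in both genotypes. In it the medians of mast cell and macrophage markers were larger, at 1.37 and 0.55. One of the endothelial markers, Cldn5, a tight junction protein, had 6.15 ± 1.92 and 10.1 ± 2.87 CPM (0.69 ± 0.27). All 10 adipocyte markers were positive too (summed 1669 to 2604 and 1587 to 3620 CPM; median 0.25; -0.12 in females and 0.65 in males). Macrophage markers had 11 of 12 positive values (summed 202 to 622 and 239 to 962 CPM; median 0.26), but 3 of 12 and -0.09 without cKO male 5, and 1 of 12 and -0.20 without the 3 cKO libraries low in eGFP. Muscle markers had 14 of 22 positive (median 0.15; 0.62 in females, -0.22 in males), with a median of -0.24 without cKO female 6 and 0.50 without wildtype female 4. Of all defining markers only Retnlg, of neutrophils, was at 0 in all 12 libraries. The part of these cell types in the gene differences was not tested.

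Several of these medians moved without the 3 cKO libraries low in eGFP, a fit in which 6.11% of all genes had an unadjusted p under 0.05. The red blood cell median was then -2.28, with 5 of 6 markers under that p, the mast cell median 0.12, the endothelial median 0.32 (11 of 12 positive, 4 under that p) and the muscle median 0.46. Among pathway lists, glycolysis had 0.27, collagens 0.22, fatty acid oxidation -0.21 and inflammation -0.09, and the tendon fibroblast markers had -0.05. The sign turned for 7 of the 44 lists. Among pathways these were matrix proteases (-0.03), Eph and ephrin genes (0.07), AMPK substrates (0.02), ossification and cartilage (-0.20) and nerve growth and vascular signals (0.02). Among markers they were those of macrophages (-0.20) and of pericytes and smooth muscle (0.05).

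**Figure D5:**
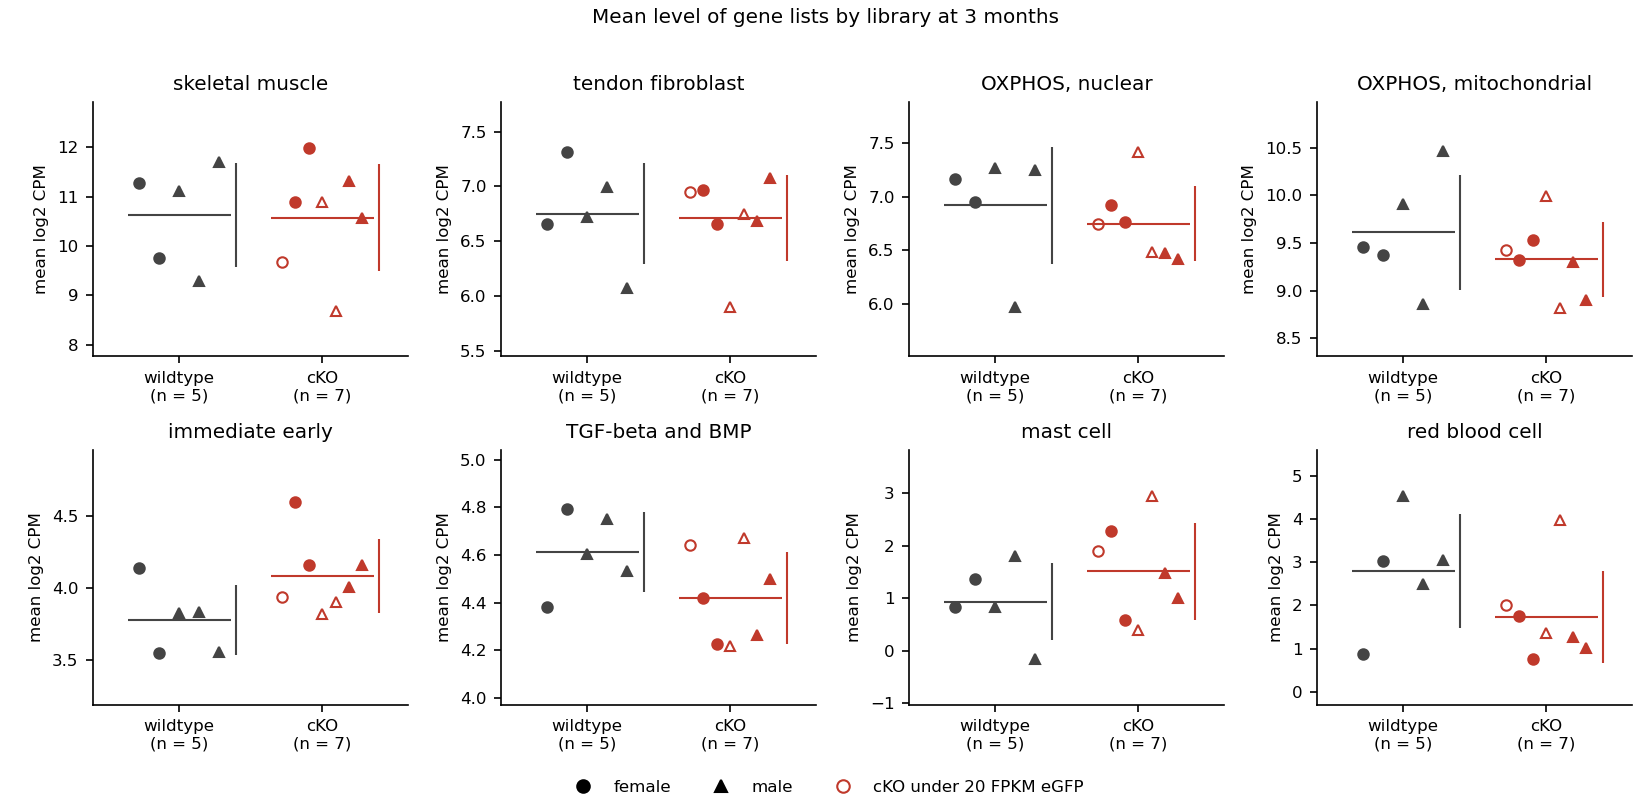
Mean log2 CPM of 8 gene lists in each 3-month library (axes do not start at 0; symbols and lines as for the plot of Prkaa1, eGFP, Scx and Bop1). The genotypes overlap in every panel, with the immediate early mean at 4.08 ± 0.26 in cKO and 3.78 ± 0.24 in wildtype.

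The 1-month libraries, which share no sample with those above, allowed a test of whether the genotype difference changed with age. No gene was called for this interaction by edgeR (0%; 721 genes or 3.77% at an unadjusted p under 0.05), and DESeq2 called 1. That gene was Gm49839, a provisional model inside Fkbp5 on the same strand, with log2 fold changes of 0.79 ± 0.48 at 3 months and -2.82 ± 0.55 at 1 month. Fkbp5, a glucocorticoid-induced chaperone gene, had -0.05 and -0.83. Flt3, a receptor of dendritic cells and their progenitors, had 0.92 ± 0.35 at 3 months and -1.79 ± 0.45 at 1 month, and Cebpd, an acute-phase transcription factor, 0.17 ± 0.21 and -1.12 ± 0.21. In the other direction were Pon1 (-1.53 ± 0.51 and 1.99 ± 0.74), the immune checkpoint ligand Cd274 (-0.55 ± 0.24 and 0.81 ± 0.26) and Plxna4os2 (-0.58 ± 0.35 and 1.25 ± 0.35), an antisense gene whose reads cannot be told from those of Plxna4 without strand. Leaving out cKO female 3 of the 1-month group, edgeR called 1 gene for the interaction, Pnpla3, a lipid droplet hydrolase gene (-1.71 ± 0.25, adjusted p = 0.0329). Cpt1a had 0.46 ± 0.21 and -0.74 ± 0.21. Bop1 and Scx had 4.62 ± 0.76 and 3.12 ± 0.65 at 1 month, and differences between ages of -0.79 ± 0.96 and -0.72 ± 0.87. Among the 1-month cKO libraries, male 1 was also low in eGFP (11.8 FPKM, against 854 to 1256 FPKM in the others). The part of eGFP-low libraries in this comparison of ages was not tested. By list, 30 of 31 nuclear oxidative phosphorylation genes were positive at 1 month (median 0.33) against 0 of 31 at 3 months, 6 of 22 immediate early genes (median -0.14) against 18, and 0.32 against -0.29 was the median of mitochondrially encoded genes. The skeletal muscle markers had a median of 1.04 at 1 month (22 of 22 positive) against 0.15 at 3 months, and their part in this contrast was not tested.

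Whether the genotype difference at 3 months depended on sex was tested with 2 wildtype and 3 cKO females and 3 wildtype and 4 cKO males. No gene was called by edgeR (0%; 252 genes or 1.32% at an unadjusted p under 0.05), nor by DESeq2 (296), limma-voom (288) or limma on log2 FPKM (214 or 227 by pseudocount). The smallest p-values belonged to genes of low or moderate level. Fosb, an AP-1 subunit, had 1.54 in females and -0.44 in males (difference -1.98 ± 0.61), with wildtype females at 2.95 and 1.37 CPM against cKO females at 6.14, 8.04 and 4.10 CPM. B3galt4, a ganglioside-building enzyme, had 1.64 and -0.12 (-1.76 ± 0.56), and the pseudogene Gm15950 0.81 and -1.28 (-2.09 ± 0.61). Snrpd2, a spliceosome core protein, had -0.40 and 0.30 (0.69 ± 0.22), and Bad, a cell death regulator, -0.46 and 0.31 (0.77 ± 0.25). For the provisional model Gm42614 the values were -2.36 and 1.68 (4.04 ± 1.31), resting on wildtype female 4 at 6.77 CPM against 0.13 to 0.62 CPM in the other wildtype libraries. With 2 wildtype females, a difference between the sexes rests on few libraries.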

How the data were processed

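RNA of whole Achilles tendon was sequenced in 24 libraries, of which the 12 at 3 months form the comparison. The authors deposited expected counts per gene and FPKM values (fragments scaled to transcript length and library depth). Per the submitters' processing notes, the tools were RSEM 1.3.3, STAR 2.7.8a, FastQC 0.11.8 and cutadapt 2.3, and the builds GRCm38 and mm10. The annotation and the strand setting of the counting are not given in the sources used here, and 99.4% of gene identifiers were found in GENCODE M21.

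Expected counts were already whole numbers (0 values needed rounding). Genes were filtered with filterByExpr (55487 to 19137), scaled by TMM and fitted with edgeR 4.0.16 (R 4.3.3, quasi-likelihood, robust) on 8 groups of genotype, sex and age, with 16 residual degrees of freedom. The contrast was the mean of both sexes' differences, cKO minus wildtype. Benjamini-Hochberg adjustment ran over all genes with a threshold of 0.05. Log2 CPM used a prior count of 2, while CPM means and ranges are unlogged. Prkaa1, Scx and Bop1 were also tested by exact permutation of log2 CPM within sex. DESeq2 1.42.0, limma 3.58.1 and other filters, scalings and covariates were alternatives, and the scripts were tested on simulated data. Pairs of same-numbered libraries of both genotypes did not deviate together in all cases (r from -0.335 to 0.410 over 4 pairs), so numbers were not taken to pair samples. No pair of libraries of a group agreed within sampling noise (13 pairs, chi-square per degree of freedom at least 37.9).

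Named genes are the AMPK subunits, the 12 of smallest p in each direction and the 6 largest changes in each direction at an unadjusted p under 0.01 (symbol and mean of at least 1 CPM), up to 3 per list of smallest p, the 3 of smallest p in each direction of each interaction, and genes called by any tool. Others are named as chosen after their values were seen. The text describes those that bear on it. The comparison, the 44 gene lists and Scx (with Bop1, which holds it) for the permutation test were chosen with earlier results of these data known. Promoters came from RefSeq tables.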

Additional observations from a re-analysis of the deposited data

Results flagged for a closer look

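Of 282 groups of values examined (genes and list levels within each genotype at 3 months), 20 had a single library set apart by Dixon's criterion, and chance alone sets apart about 1 in 20 groups.

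In cKO, female 6 was low for Hyal1 (2.43 CPM), Cd274 (1.82 CPM) and Fgf2 (26.2 CPM), and female 4 was low for Ephb1 (0.578 CPM). cKO male 3 was low for P4ha1 (40.3 CPM), Nr4a2 (2.94 CPM) and the tendon fibroblast level (mean log2 CPM 5.90). cKO male 5 was high for Alas2 (4.96 CPM), Hba-a2 (112 CPM), the red blood cell level (mean log2 CPM 3.97) and the ossification and cartilage level (4.16), and low for the clock level (4.66). cKO male 7 was high for Camkk1 (6.26 CPM).

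In wildtype, female 4 was high for Nr4a3 (26.4 CPM) and the level of nerve growth and vascular signals (mean log2 CPM 4.22), and low for Kpna2-ps (0.764 CPM). Wildtype male 5 was high for Pfkfb3 (165.6 CPM) and low for the nuclear oxidative phosphorylation level (mean log2 CPM 5.97). Wildtype male 6 was high for Rad1 (3.67 CPM) and Gm49839 (14.8 CPM).

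The transgene values lie outside the gene count table. The lowest cKO library had 0.51 FPKM of cre and the lowest had 1.4 FPKM of eGFP, while every wildtype library at 3 months was at 0 for both.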

How the results depend on the processing

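No gene was called at 3 months except by DESeq2 (1 gene, Bop1) and, in an alternative chosen after seeing the data, without the 3 cKO libraries low in eGFP (1, Bop1). The age interaction had 1 call with DESeq2 and 0 to 1 over single libraries left out. Over the same leave-outs the exact permutation p ran from 0.00714 to 0.457 for Prkaa1, 0.02 to 0.113 for Scx and 0.0143 to 0.05 for Bop1. Scx missed 0.05 without any of 8 libraries, and Bop1 without cKO male 6 or 7. Each leave-out has fewer arrangements than the 350 of the full test, which by itself can raise the p. In the 8 fits the Scx difference in log2 CPM was 1.52 to 1.85, against 1.85 with all libraries. For Bop1 it was 2.73 and 2.65, against 2.97. The lowest p of Prkaa1 came without wildtype female 4, the only library through which its groups overlapped. A fit with the replicate number as a block called 0 genes (263 at an unadjusted p under 0.05). The labels do not say whether these numbers pair the samples. Only female 4, female 5, male 5 and male 6 occur in both genotypes, so the genotype difference of this fit rests on those pairs. Libraries without a partner, cKO female 6 among them, add nothing to it. In this fit the medians of 15 of the 44 lists changed sign. Among them were skeletal muscle (0 of 22 positive), glycolysis, tendon fibroblast, proteoglycan and endothelial genes. The part of the unpaired libraries in these changes was not tested. Of 97 genes named in the text, 87 kept their sign in all 13 alternatives and 24 leave-outs, and 10 did not. Most were named for a small p in these same libraries, which favours a kept sign, so this count is no independent support. The share over all genes tested was not computed, and leave-outs of 1-month libraries took away no library of this comparison. In limma on log2 FPKM (pseudocounts 0.1 and 1), where the median of all genes moved to 0.05 and 0.04, the sign turned for Bad (0.0531 and 0.0487), Nfib (0.0199 and 0.0195), Prkaa2 (0.0272 and 0.0260), Prkag2 (0.0302 and 0.0324) and Snrpd2 (0.0144 and 0.0167). Without the 3 cKO libraries low in eGFP it turned for Prkaa2 (0.0210), Prkag2 (0.0111) and Snrpd2 (9.04e-05), with the block for Prkag3 (-0.14) and Snrpd2 (0.0602), with an additive sex term for Snrpd2 (0.0328), and with limma-voom for Gm42614 (0.22). Over the leave-outs, the genes that turned ranged from -0.235 to 0.185 (Prkaa2), -0.00728 to 0.188 (Prkab1), -0.110 to 0.889 (Prkab2), -0.176 to 0.0895 (Prkag2), -0.300 to 1.75 (Prkag3), -1.20 to 0.170 (Il33) and -0.817 to 1.25 (Gm42614). The cause was not tested. Depth limits genes near 1 CPM, where the smallest library (7.32 M counts) holds few reads.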
